A study of Mus musculus with 16 samples.

Results

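Lactate and glucose move between the cells of the brain through carriers in the plasma membrane, and glycolysis and lactate dehydrogenase link the 2 metabolites. The genes described here are the 9 whose symbol in the gene abundance tables is Slc16a1, Slc16a3, Slc16a7, Slc2a1, Slc2a3, Ldha, Ldhb, Hk1 or Pfkfb3. They were taken by symbol, are 9 of 24421 gene names in the tables, and all 9 were among the 17317 genes tested. The study asked which genes of the dentate gyrus, the hippocampal region where new neurons form in adults, differ after loss of the cell cycle inhibitor p16Ink4a (p16) and after voluntary running. RNA came from the bilateral dentate gyrus of 1 year old male C57BL/6 mice in 4 groups. The p16 WT CTL group was p16Ink4a +/+ and sedentary, the p16 KO CTL group was p16Ink4a -/- and sedentary, and the p16 WT RUN and p16 KO RUN groups had the same genotypes with a running wheel in the cage for 12 days. The knockout is constitutive, was made in FVB mice and was then crossed into C57BL/6. It leaves p19Arf, which shares the Cdkn2a locus, functional. Each group had 4 libraries and each library pooled the tissue of 2 mice, so that the spread between libraries is a spread between pairs of animals and not between single animals.

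Monocarboxylate transporters carry lactate, pyruvate and ketone bodies together with a proton. MCT1, encoded by Slc16a1, is known from brain endothelium, astrocytes and oligodendrocytes, MCT4 (Slc16a3) from astrocytes, and MCT2 (Slc16a7) from neurons, where its high affinity favours uptake. Glucose enters the brain through GLUT1 (Slc2a1) of endothelium and glia and reaches neurons mainly through GLUT3 (Slc2a3). Hexokinase 1 (Hk1) traps glucose as glucose 6-phosphate, PFKFB3 (Pfkfb3) makes the activator of phosphofructokinase and is a known accelerator of glycolysis in astrocytes, and LDHA and LDHB (Ldha, Ldhb) are the muscle-type and heart-type subunits of the tetramer that interconverts pyruvate and lactate. In bulk tissue, fewer cells of a type and less RNA per cell cannot be told apart.

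The promoters of Slc16a1 and Ldhb are printed because these were the members called between groups in the pairwise comparisons, and that of Ldha because it pairs with Ldhb. Each line gives the 250 bases before the start site from RefSeq (GRCm38.p6), read 5′ to 3′ on the strand of the gene. Capitals mark 3 motifs on either strand. ACGTG (read as CACGT on the other strand) is one core of the hypoxia response element and GCGTG (which reads CACGC on the other strand) is its variant, while CACGTG is the E-box, which reads the same on both strands and contains ACGTG. The windows lie on the build of the tables, at chr3:104638414-104638663 (plus strand), chr6:142507958-142508207 (minus strand) and chr7:46845554-46845803 (plus strand).
Slc16a1: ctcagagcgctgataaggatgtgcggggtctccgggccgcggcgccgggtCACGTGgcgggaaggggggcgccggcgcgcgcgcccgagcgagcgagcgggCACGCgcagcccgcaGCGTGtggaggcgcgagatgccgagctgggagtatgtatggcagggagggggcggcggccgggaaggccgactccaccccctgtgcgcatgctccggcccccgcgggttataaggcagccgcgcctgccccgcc
Ldhb: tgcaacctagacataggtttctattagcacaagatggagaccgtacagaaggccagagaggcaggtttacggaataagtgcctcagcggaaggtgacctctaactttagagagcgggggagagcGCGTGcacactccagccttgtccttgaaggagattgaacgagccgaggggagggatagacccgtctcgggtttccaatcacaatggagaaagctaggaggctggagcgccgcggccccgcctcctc
Ldha: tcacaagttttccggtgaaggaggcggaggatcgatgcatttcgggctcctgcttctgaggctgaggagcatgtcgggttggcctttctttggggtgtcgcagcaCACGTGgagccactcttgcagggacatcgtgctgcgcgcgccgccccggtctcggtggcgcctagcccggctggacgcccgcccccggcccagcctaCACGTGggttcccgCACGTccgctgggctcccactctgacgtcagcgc

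Over the full window of 300 bases, 250 before and 50 after the start site, the Slc16a1 promoter held 1 CACGTG and 2 GCGTG. Each CACGTG holds ACGTG once on each strand, so that 2 of the 3 ACGTG counted over both strands of the Slc16a1 window lay inside it. The Ldha window held 2 CACGTG, 5 ACGTG of which 4 lay inside them, and 2 GCGTG, while that of Ldhb held 1 GCGTG and no ACGTG. The reference table had 10 windows for 7 of the members, and Slc16a7 and Slc2a3 had no entry. ACGTG stood in 7 of these 10 windows against 19.6% of 32851 promoters of the same length, GCGTG in 7 against 32.4%, and CACGTG in 3 against 7.15%. Some members gave 2 windows, and the promoters compared were not matched for G and C content. That content was 49.6 to 76.4% in the 250 bases before the start sites of the members. These matches describe the reference sequence and do not show binding.

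Relative sequencing depth, taken from the coverage that the tables give, ranged over the 16 libraries from 0.621 to 1.95 times the mean over the libraries. All 8 sedentary libraries (0.900 to 1.95) were deeper than all 8 running libraries (0.621 to 0.893), so that depth and running cannot be told apart in any comparison of running with sedentary libraries. Cdkn2a, the targeted locus, was at 0 in 3 of 8 p16 WT and in 5 of 8 p16 KO libraries and reached 0.586 TPM (transcript abundance scaled to a fixed sum per library) and 0.413 TPM, so that its level gave no check of the genotype, and the gene total includes p19Arf. The 5 granule neuron markers of the dentate gyrus (Prox1, Dsp, C1ql2, Calb1 and Stxbp6) were detected in every library, at 26.7 TPM or more. Their sum ran from 469 TPM in p16 KO CTL replicate 8 to 1294 TPM in p16 WT CTL replicate 3. Markers of CA1 pyramidal neurons (Wfs1, Fibcd1 and Mpped1) summed to 232 TPM in p16 KO CTL replicate 8 and to at most 138 TPM elsewhere. Those of choroid plexus (Ttr, Kl, Folr1, Aqp1, Clic6 and Slc4a5) summed to 212 TPM in p16 KO CTL replicate 7 and to at most 61.6 TPM elsewhere. In 3 sedentary libraries (p16 WT CTL replicate 2, p16 KO CTL replicates 6 and 7) the summed TPM of 7 nuclear RNAs (Malat1, Neat1, Meg3, Miat, Rian, Snhg11 and Mirg) was 479 to 976 TPM, against 1825 to 2529 TPM in the other 13. The same 3 libraries had the lowest sums of the 6 endothelial markers, at 61.0 to 85.8 TPM against 101 to 153 TPM. They also had the highest sums of the microglial markers, at 363 to 454 TPM against 292 to 358 TPM. Their astrocyte marker sums were 2815 to 3358 TPM, against 2151 to 2822 TPM in the other 13. For some of the differences between groups, values without these libraries are given below, while correlations are given over all 16 libraries only. Leaving them out removes replicates 6 and 7 of the 4 p16 KO CTL libraries and replicate 2 of the 4 p16 WT CTL libraries. With so few libraries a call can be lost with little change in the difference.

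In TPM, which are scaled for transcript length and so allow genes to be set side by side, the members spanned from 605 ± 57.3 TPM for Ldhb to 1.39 ± 0.301 TPM for Slc16a3 (mean ± SD over the 16 libraries). Ldhb stood above Ldha (378 ± 45.7 TPM) in 16 of 16 libraries. Ldha stood above Hk1 (330 ± 30.9 TPM) in 14 of 16, and the ranges of the 2 genes overlapped. The neuronal glucose transporter Slc2a3 (112 ± 7.46 TPM) exceeded Slc2a1 (60.7 ± 8.10 TPM) in every library, and Pfkfb3 followed at 30.7 ± 4.80 TPM. Of the lactate transporters, Slc16a1 was the most abundant at 21.8 ± 3.52 TPM, below Pfkfb3 in 15 of 16 libraries with overlapping ranges, and Slc16a7 came next at 13.5 ± 1.79 TPM. Apart from these 2 pairs, the ranges of neighbours in this order did not overlap. Slc2a3 varied least, with a coefficient of variation of 6.64% over the 16 libraries, and Slc16a3, the lowest gene, varied most at 21.7%.

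**Figure D1:**
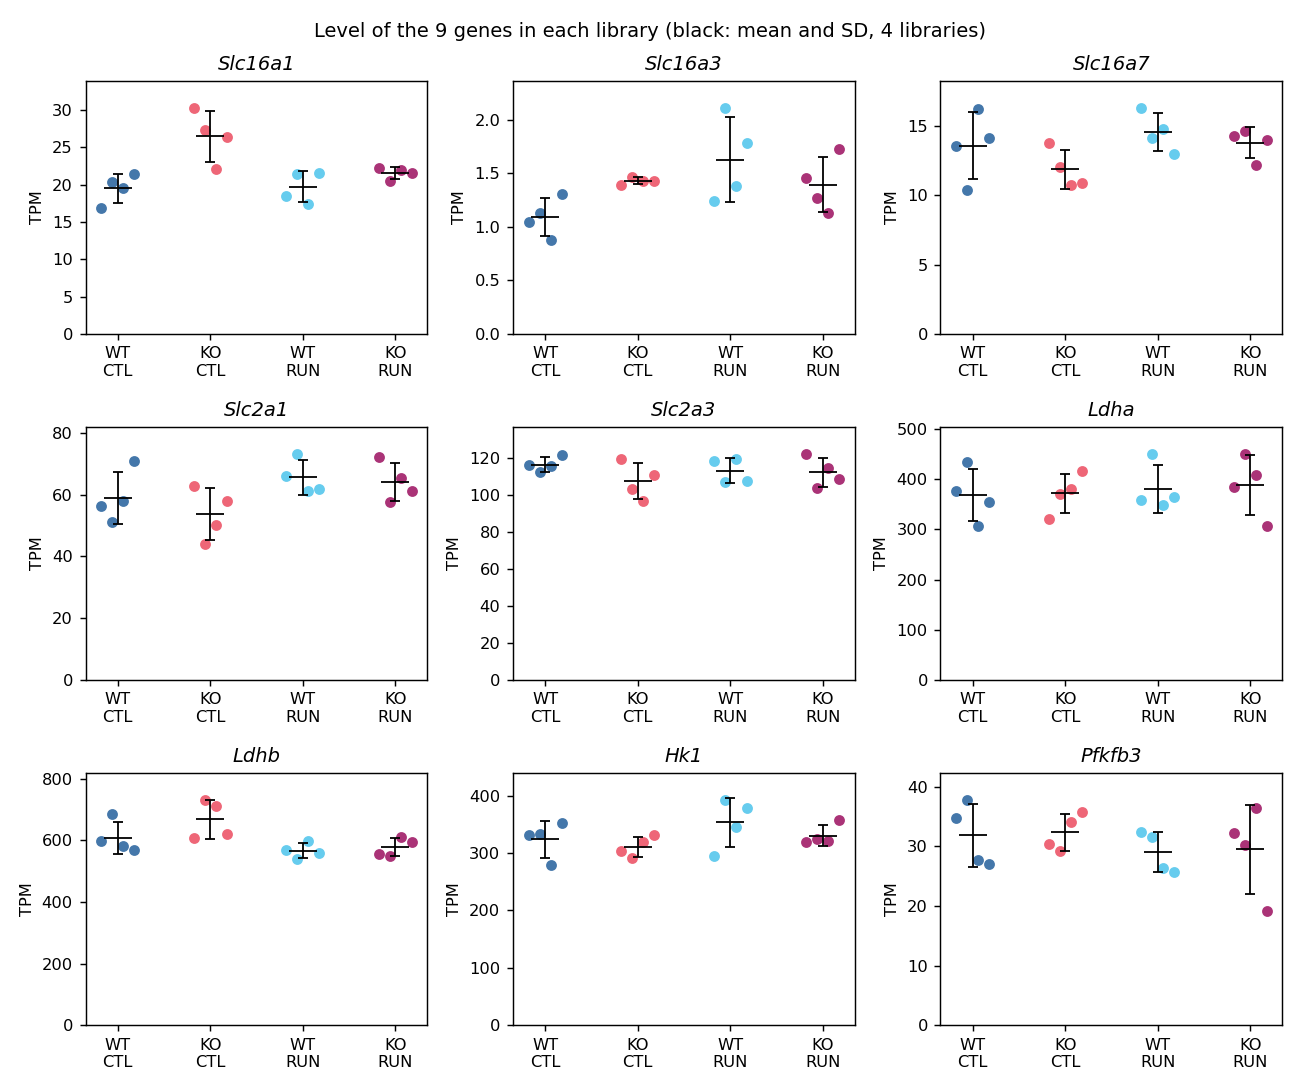
TPM of the 9 genes (vertical axes, from 0) in the 4 groups (horizontal axes); each point is a library of 2 pooled mice, and the black marks are the mean and SD of 4 libraries. Slc16a1 stands highest in the p16 KO CTL group, with 22.1 to 30.3 TPM against 16.8 to 21.4 TPM in the p16 WT CTL group.

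The 5 pairwise comparisons and the unadjusted threshold follow the study. Running was compared with no running in Set A (p16 KO mice) and in Set C (p16 WT mice). The knockout was compared with the wild type in Set B (sedentary mice) and in Set E (runners), and Set D set running knockout mice against sedentary wild-type mice. A positive value means higher in the runners or in the knockout. The Sets share groups and are not independent of each other. Differences are log2 fold changes of scaled TPM with limma, and a gene was called at an unadjusted p under 0.05. In Set A 2 of 9 members were called, both lower in running mice (Slc16a1 and Ldhb), where 18.5% of all genes tested were called and 7.74% were called lower. In Set B 1 of 9 was called, Slc16a1, which was higher in the knockout, against 6.69% of all genes called and 3.15% called higher. No member was called in Set C (4.81% of all genes), Set D (8.63%) or Set E (3.87%). The interaction, which asks whether the difference with running depends on genotype, called 2 of 9 (Slc16a1 and Slc16a3, both with a negative difference) against 5.48% of all genes, and 2.54% with a negative difference. Running over both genotypes, with 8 running against 8 sedentary libraries, called 3 of 9, with Slc16a1 and Ldhb lower and Slc2a1 higher, against 17.9% of all genes (9.87% higher and 8.02% lower). After Benjamini-Hochberg adjustment over all genes tested, limma called 0 members in each of these 7 comparisons, against 0.0173% of all genes in Set A, 0.00577% in Set E, 0.751% for running over both genotypes and 0% in the other 4, and the smallest adjusted p of a member was 0.138, for Slc16a1 in Set A. The median log2 fold change of the 9 members lay close to that of all genes, for example -0.01 against 0.02 in Set A and 0.08 against -0.01 in Set B.

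**Figure D2:**
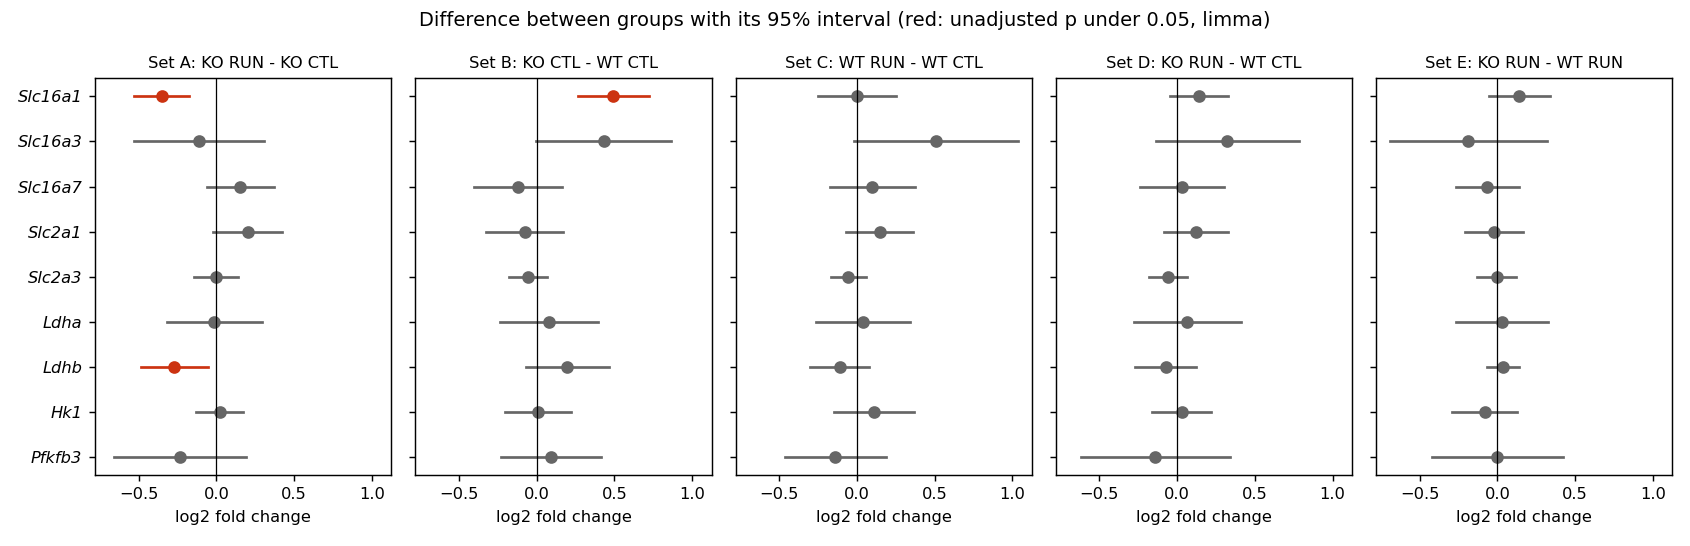
Log2 fold change of each member (points) with its 95% interval (lines) in Sets A to E; red marks an unadjusted p under 0.05 with limma. Slc16a1 lies at -0.35 in Set A and at 0.49 in Set B, Ldhb at -0.27 in Set A, and the other intervals include 0.

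Slc16a1 (MCT1) lies at chr3:104638664-104658462 on the plus strand of mm10. Its level was 16.8, 20.4, 19.6 and 21.4 TPM in the p16 WT CTL libraries and 30.3, 27.3, 22.1 and 26.4 TPM in the p16 KO CTL libraries. The 2 groups did not overlap, as was true of 2.81% of all genes in Set B. The difference was 0.49 on the log2 scale (SE 0.102, 95% interval 0.26 to 0.72), a fold of 1.41, with an unadjusted p of 0.000925 and an adjusted p of 0.625 (limma). Exact permutation of the libraries (two-sided, 35 splits) gave p = 0.0286, the smallest it can give. After running, the p16 KO libraries held 22.3, 20.5, 22.0 and 21.5 TPM. All but 1 of the sedentary knockout libraries exceeded them, and replicate 7 of the p16 KO CTL group (22.1 TPM) fell inside their range. On the scaled TPM that the fit and the permutation test used, the groups did not overlap, at 24.0 to 29.9 in sedentary and 20.8 to 21.9 in running knockout libraries. In Set A the log2 fold change was -0.35 (SE 0.0785, 95% interval -0.53 to -0.17; unadjusted p = 0.00148, adjusted p = 0.138, limma; exact permutation p = 0.0286).

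The wild-type runners held 18.5, 21.4, 17.5 and 21.6 TPM of Slc16a1, over the same range as sedentary wild-type mice, and the log2 fold change in Set C was 0.0004 with a 95% interval of -0.25 to 0.25. Running knockout mice also overlapped both wild-type groups, with 0.14 in Set D (-0.04 to 0.33; unadjusted p = 0.120, limma) and 0.14 in Set E (-0.05 to 0.34; unadjusted p = 0.138, limma). For this gene the p16 KO CTL group was the one that stood apart. The interaction was -0.35 (SE 0.136, 95% interval -0.64 to -0.06, unadjusted p = 0.0200, adjusted p = 0.797, limma), and over both genotypes running libraries were lower by a log2 fold change of -0.18 (unadjusted p = 0.0202, adjusted p = 0.203, limma). Leaving out each library in turn kept an unadjusted p under 0.05 in 8 of 8 fits in Set A (-0.42 to -0.31), 8 of 8 in Set B (0.43 to 0.56) and 16 of 16 in the interaction (-0.42 to -0.28). With TPM as deposited, without the median ratio scaling, the interaction (-0.30, unadjusted p = 0.0536) and the difference over both genotypes (-0.14, unadjusted p = 0.0752, limma) lost the call. Without the 3 libraries low in nuclear RNA the values were -0.41 in Set A (unadjusted p = 0.000842), 0.59 in Set B (unadjusted p = 0.00260) and -0.45 in the interaction (unadjusted p = 0.00880, limma). In these fits the p16 KO CTL group held only replicates 5 and 8. Without p16 WT CTL replicate 2, Slc16a1 was also called higher in Set D, at 0.19 (unadjusted p = 0.0458, limma).

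MCT1 is known from oligodendrocytes, and 4 of 6 oligodendrocyte markers were called lower in Set A (18.5% of all genes were called and 7.74% were called lower). Their sums were 1458 to 2426 TPM in p16 KO CTL and 1132 to 1484 TPM in p16 KO RUN libraries. In Set B (6.69% of all genes called and 3.15% called higher), 1 of the 6 was called higher. Over the 16 libraries, Slc16a1 had a Pearson r of 0.45 with the summed oligodendrocyte markers and of -0.01 once each group's mean was removed. Of the astrocyte and of the microglial markers, 2 of 6 each were called lower in Set A, and 1 and 2 of 6 were called higher in Set B, while the others did not pass. Their sums had an r of 0.46 and 0.53 with Slc16a1 (0.08 and 0.05 once group means were removed). Of the endothelial markers, 2 of 6 were called higher in Set A and 4 did not pass, and their sum gave an r of -0.33 with Slc16a1 (0.13 once group means were removed). The part of these cell types in the Slc16a1 differences was not tested. The genes with the pattern most like that of Slc16a1 among 14437 genes were Wipf1 (r = 0.84), Sall1 (r = 0.84) and Cdc14a (r = 0.81), over 16 libraries that carry the same group structure.

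Slc16a7 (MCT2, chr10:125227485-125328535, minus strand) was called in no comparison. The p16 WT CTL libraries held 13.6, 10.4, 16.2 and 14.1 TPM, the p16 KO CTL libraries 13.7, 12.0, 10.8 and 10.9, the p16 WT RUN libraries 16.3, 14.1, 14.8 and 13.0, and the p16 KO RUN libraries 14.3, 14.7, 12.2 and 14.0 TPM. All groups overlapped, and sedentary knockout libraries had the lowest mean, 11.9 ± 1.38 TPM. The log2 fold change was 0.15 in Set A (95% interval -0.06 to 0.37) and -0.12 in Set B (-0.40 to 0.16). Over both genotypes it was 0.13 with running (unadjusted p = 0.121), and without p16 WT CTL replicate 3 it was 0.17 (unadjusted p = 0.0402, limma).

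Slc16a3 (MCT4, chr11:120948484-120959000, plus strand) was a low gene here. Its level was 1.05, 1.13, 0.875 and 1.31 TPM in sedentary wild-type, 1.39, 1.47, 1.43 and 1.43 TPM in sedentary knockout, 1.24, 2.11, 1.38 and 1.78 TPM in running wild-type and 1.45, 1.27, 1.13 and 1.72 TPM in running knockout libraries. Sedentary knockout libraries all exceeded sedentary wild-type ones, making Slc16a3 the other member without overlap in Set B. The difference there was 0.43 (SE 0.192, 95% interval -0.0034 to 0.87; unadjusted p = 0.0515, limma; exact permutation p = 0.0286), and in Set C it was 0.51 (SE 0.234; unadjusted p = 0.0565, limma; exact permutation p = 0.0571). Neither passed the limma threshold with all libraries. Of 8 fits that left out 1 library, 1 passed in each Set. These were Set B without p16 WT CTL replicate 4 (0.50, unadjusted p = 0.0442) and Set C without p16 WT RUN replicate 9 (0.63, unadjusted p = 0.0332). In the other fits the unadjusted p reached 0.128 in Set B and 0.151 in Set C. Without the libraries low in nuclear RNA neither passed (Set B 0.41, unadjusted p = 0.168, and Set C 0.55, unadjusted p = 0.0628, limma). The differences in both Sets passed with a pseudocount of 1 TPM, with a single fit of all 16 libraries and without the variance trend. The interaction was -0.62 (SE 0.280, unadjusted p = 0.0422, adjusted p = 0.797, limma). It lost the call in 10 of 16 fits that left out 1 library (p16 WT CTL replicates 1 and 3, p16 KO CTL replicates 6, 7 and 8, p16 WT RUN replicates 10 and 12, p16 KO RUN replicates 13, 14 and 15), with p up to 0.0965. It was also lost with TPM as deposited and without the 3 libraries low in nuclear RNA (-0.60, unadjusted p = 0.106).

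Within a library, the share of each transporter in the summed TPM of the 3 does not depend on how libraries are scaled. Slc16a1 made up 57.2 ± 4.95% of the sum in sedentary wild-type, 66.5 ± 1.55% in sedentary knockout, 54.9 ± 3.83% in running wild-type and 58.7 ± 2.52% in running knockout libraries (mean ± SD, n = 4). The p16 KO CTL shares, 64.4 to 68.1%, lay above those of every other library, which reached 63.9% in p16 WT CTL and 62.2% in p16 KO RUN. The share of Slc16a7 mirrored this, at 29.9 ± 1.36% in p16 KO CTL against 39.6 ± 5.31% in p16 WT CTL and 37.5 ± 2.31% in p16 KO RUN. Slc16a3 held between 2.39% and 5.60% in all libraries.

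**Figure D3:**
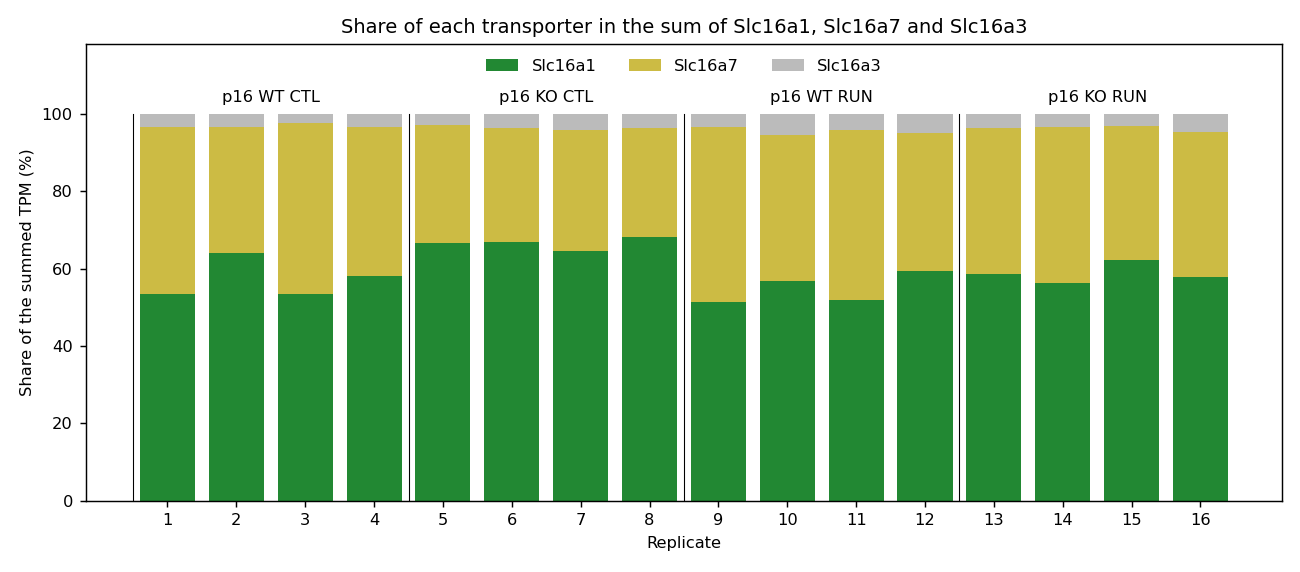
Share of Slc16a1 (green), Slc16a7 (yellow) and Slc16a3 (grey) in the summed TPM of the 3 genes (vertical axis, percent) in each of the 16 libraries (horizontal axis, replicate number). The Slc16a1 share is 64.4 to 68.1% in the 4 p16 KO CTL libraries and at most 63.9% in the other 12.

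Slc2a1 (GLUT1, chr4:119108745-119137329, plus strand) is on the chromosome of the targeted Cdkn2a locus. It held 56.3, 51.0, 57.9 and 70.9 TPM in sedentary wild-type, 62.8, 44.0, 50.1 and 58.1 TPM in sedentary knockout, 66.1, 73.3, 61.2 and 61.9 TPM in running wild-type and 72.2, 57.8, 65.5 and 61.4 TPM in running knockout libraries. Of the 8 sedentary libraries 4 lay below the lowest running library, and all groups overlapped. Between genotypes the log2 fold change was -0.08 in sedentary (Set B, 95% interval -0.33 to 0.17) and -0.02 in running mice (Set E, -0.21 to 0.16). Over both genotypes running libraries were higher by 0.17 (SE 0.0716, 95% interval 0.02 to 0.33, unadjusted p = 0.0283, adjusted p = 0.227, limma), with 0.20 in Set A (unadjusted p = 0.0735, limma) and 0.15 in Set C (unadjusted p = 0.157, limma).

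That call was lost when p16 WT CTL replicate 1 or 2, p16 KO CTL replicate 6, p16 WT RUN replicate 10 or p16 KO RUN replicate 13 was left out, with unadjusted p of 0.0503 to 0.0656. Conversely, Slc2a1 was called higher in Set A with TPM as deposited (0.27, unadjusted p = 0.0481) and without p16 KO CTL replicate 5 (0.25, unadjusted p = 0.0353), and in Sets C and D without p16 WT CTL replicate 4 (0.22, unadjusted p = 0.0245, and 0.20, unadjusted p = 0.0291, limma). The 3 libraries low in nuclear RNA were the 3 lowest for Slc2a1, at 44.0 to 51.0 TPM against 56.3 to 73.3 TPM. Without them the difference over both genotypes was 0.08 (unadjusted p = 0.254) and that in Set A was 0.07 (unadjusted p = 0.477, limma). Leaving out p16 KO CTL replicate 6 alone gave 0.12 in Set A (unadjusted p = 0.195, limma). For running over both genotypes, 3 of 6 endothelial markers were called higher and 0 lower, where 9.87% of all genes were called higher. Over the 16 libraries Slc2a1 had a Pearson r of 0.77 with the summed markers of endothelium, the main site of GLUT1, and of 0.74 with the nuclear RNAs. Whether either accounts for the difference was not tested.

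Slc2a3 (GLUT3, chr6:122727809-122742745, minus strand) ranged from 112 to 122 TPM in sedentary wild-type, from 96.5 to 120 TPM in sedentary knockout, from 107 to 119 TPM in running wild-type and from 104 to 122 TPM in running knockout libraries. It was called nowhere, its log2 fold changes lay between -0.06 and -0.0035 in Sets A to E, and the sign in Set A depended on the scaling of libraries. The 95% intervals in these Sets stayed within -0.18 and 0.14. The share of Slc2a1 in the sum of the 2 transporters was 33.5 ± 2.37% in sedentary wild-type, 33.2 ± 2.23% in sedentary knockout, 36.7 ± 2.88% in running wild-type and 36.4 ± 0.573% in running knockout libraries. In the knockout, running (35.8 to 37.2%) and sedentary libraries (29.9 to 34.4%) did not overlap in this share.

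Hk1, the first enzyme of glycolysis in most brain cells (chr10:62268855-62379908, minus strand), ranged from 278 to 352 TPM in sedentary wild-type, 291 to 331 TPM in sedentary knockout, 296 to 393 TPM in running wild-type and 319 to 357 TPM in running knockout libraries. All groups overlapped. Its log2 fold change was 0.02 in Set A (95% interval -0.13 to 0.17), 0.01 in Set B (-0.20 to 0.22) and 0.11 in Set C (-0.15 to 0.37). With 1 library left out, the Set C value ranged from 0.03 (without p16 WT CTL replicate 3) to 0.20 (without p16 WT RUN replicate 9). Without p16 WT RUN replicate 9, Hk1 was called lower in Set E, at -0.17 (unadjusted p = 0.0352, limma), against -0.08 (unadjusted p = 0.395, limma) with all libraries.

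Pfkfb3 (chr2:11471431-11553929, minus strand) held 34.8, 37.8, 27.8 and 27.1 TPM in sedentary wild-type, 30.4, 29.2, 34.2 and 35.7 TPM in sedentary knockout, 32.4, 31.6, 26.5 and 25.8 TPM in running wild-type and 32.2, 30.3, 36.5 and 19.1 TPM in running knockout libraries. Replicate 16 of the p16 KO RUN group was the lowest of the 16, and all groups overlapped. The log2 fold change was -0.23 in Set A (95% interval -0.66 to 0.19) and -0.14 in Set C (-0.46 to 0.18). Without replicate 16 the Set A value was -0.03, and without p16 WT CTL replicate 2 the Set C value was -0.03. Over the 16 libraries Pfkfb3 had an r of 0.90 with the summed neuron markers (0.88 with group means removed) and of 0.73 with Ldha. With the granule neuron markers its r was -0.72 (-0.71 with group means removed), and with the oligodendrocyte markers 0.72. These correlations are over libraries that share the same fixed TPM sum, and they are descriptions only.

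Ldhb, whose tetramers favour the conversion of lactate to pyruvate, lies at chr6:142490249-142507957 on the minus strand. It held 597, 684, 582 and 568 TPM in sedentary wild-type, 608, 732, 712 and 620 TPM in sedentary knockout, 568, 540, 598 and 560 TPM in running wild-type and 557, 549, 611 and 594 TPM in running knockout libraries. The sedentary knockout libraries were the highest group, and 1 of them (608 TPM) fell below the highest running knockout library (611 TPM). In Set A the log2 fold change was -0.27 (SE 0.0949, 95% interval -0.49 to -0.06; unadjusted p = 0.0185, adjusted p = 0.219, limma; exact permutation p = 0.0571), a fold of 0.829. Over both genotypes it was -0.19 (SE 0.0646, unadjusted p = 0.00963, adjusted p = 0.158, limma). Ldhb was not called in Set B (0.20, 95% interval -0.07 to 0.46) or Set C (-0.11, -0.30 to 0.08).

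The 3 libraries low in nuclear RNA were the 3 highest for Ldhb, at 684 to 732 TPM against 540 to 620 TPM in the other 13. Without them the Set A difference was -0.11 (unadjusted p = 0.132) and that over both genotypes was -0.07 (unadjusted p = 0.0884, limma). The Set A call was also lost with quantile normalization (-0.13, unadjusted p = 0.0640), and without p16 KO CTL replicate 6 (-0.22, unadjusted p = 0.0529), p16 KO CTL replicate 7 (-0.22, unadjusted p = 0.0508) or p16 KO RUN replicate 13 (-0.25, unadjusted p = 0.0517, limma). Without p16 WT CTL replicate 2, Ldhb was called higher in Set B (0.28, unadjusted p = 0.0342) and negative in the interaction (-0.24, unadjusted p = 0.0494, limma). Without all 3 libraries low in nuclear RNA, Ldhb was called in neither (Set B 0.12, unadjusted p = 0.141, and interaction -0.08, unadjusted p = 0.302, limma). Over the 16 libraries the r of Ldhb was -0.93 with the nuclear RNAs, -0.88 with the endothelial, 0.92 with the microglial and 0.82 with the astrocyte markers. The genes most like it in pattern were Cst3 and Asrgl1 (r = 0.98) and Gja1 (r = 0.97), of which Gja1, connexin 43 of astrocytes, is also on the astrocyte list. The part of these measures in the Ldhb differences was not tested.

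**Figure D4:**
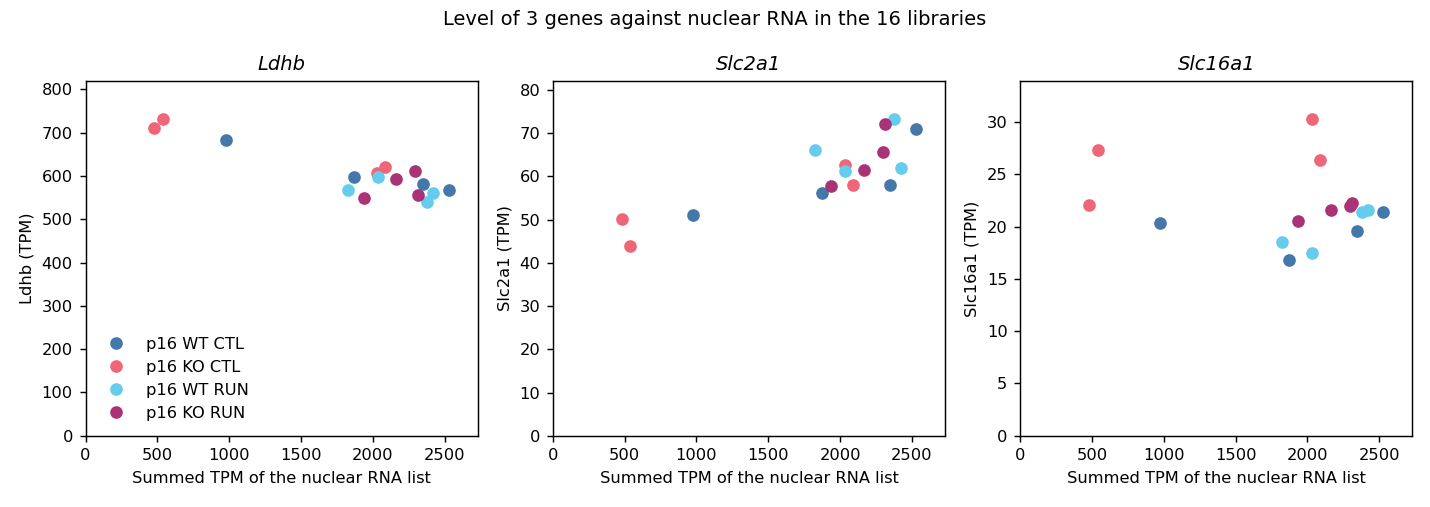
TPM of Ldhb, Slc2a1 and Slc16a1 (vertical axes, from 0) against the summed TPM of 7 nuclear RNAs (horizontal axes) in the 16 libraries, coloured by group. The 3 libraries below 1000 TPM of nuclear RNA hold the 3 highest Ldhb values (684 to 732 TPM) and the 3 lowest Slc2a1 values (44.0 to 51.0 TPM), while Slc16a1 spans 20.4 to 27.3 TPM in them and 16.8 to 30.3 TPM in the other 13.

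Ldha (chr7:46845804-46855627, plus strand), whose tetramers favour lactate production, held 378, 434, 307 and 356 TPM in sedentary wild-type, 322, 370, 381 and 416 TPM in sedentary knockout, 360, 451, 349 and 365 TPM in running wild-type and 386, 450.3, 408 and 308 TPM in running knockout libraries. High and low libraries occurred in every group. The log2 fold change was -0.01 in Set A (95% interval -0.32 to 0.29), 0.08 in Set B (-0.24 to 0.39), 0.04 in Set C (-0.27 to 0.34), 0.07 in Set D (-0.28 to 0.41) and 0.03 in Set E (-0.27 to 0.33). The sign in Set A depended on the scaling, and with 4 libraries a group the data do not exclude differences within these intervals. Ldha had an r of 0.75 with the summed neuron markers, -0.77 with the granule neuron markers and 0.68 with the oligodendrocyte markers over the 16 libraries. Its share in the sum of Ldha and Ldhb was 37.7 ± 2.06% in sedentary wild-type, 35.8 ± 2.97% in sedentary knockout, 40.1 ± 3.75% in running wild-type and 40.0 ± 4.51% in running knockout libraries, with overlap in every comparison.

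Annotated genes overlap 5 of the members. Among the transcripts annotated on the same build, opposite-strand ones overlap Slc2a1 (Gm12867, and Gm12868 at the end of the gene), Hk1 (Hk1os), Slc16a7 (Gm45604) and Pfkfb3 (Gm10851). Transcripts on the same strand lie within Slc16a1 (Gm43581 and Gm43585, both annotated as intronic), Pfkfb3 (Gm37975) and Slc2a1 (the miRNA Mir1957a). The library kit keeps the strand, which does not separate reads of genes on the same strand. No other annotated gene overlapped Ldha, Ldhb, Slc2a3 or Slc16a3.

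Around the 9 members stand the other genes of glucose and monocarboxylate transport, glycolysis and its control, pyruvate entry into mitochondria and glycogen, in a list of 72 genes of which 68 were tested. In Set A, 9 of the 68 were called (13.2%, against 18.5% of all genes), 1 higher and 8 lower, where 7.74% of all genes were called lower. Of these, 3 of 12 belonged to pyruvate entry: Mpc1 and Mpc2, the subunits of the mitochondrial pyruvate carrier, and Pdk4, an inhibitory kinase of pyruvate dehydrogenase. Mpc1 was 150 ± 10.7 TPM in p16 KO CTL and 130 ± 4.95 TPM in p16 KO RUN libraries (-0.27, SE 0.0789, unadjusted p = 0.00726, adjusted p = 0.185, limma), and its groups did not overlap, as for 10% of all genes in Set A. Mpc2 was 233 ± 25.5 TPM and 197 ± 12.2 TPM (-0.30, SE 0.0891, unadjusted p = 0.00806, adjusted p = 0.188, limma). In the glycogen list 3 of 7 were called lower, among them the phosphorylase Pygm, which fell by 0.36 on the log2 scale. In the glycolysis list 3 of 20 were called, with triosephosphate isomerase Tpi1 lower (-0.24) and the hexokinase paralogue Hkdc1 higher (0.44). None of 8 glucose transporters and none of 13 monocarboxylate transporters and partners was called in Set A.

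Without the libraries low in nuclear RNA, 3 of the 68 (4.41%) were called in Set A, and the share over all genes fell to 8.49%. Mpc1 (-0.14, unadjusted p = 0.0493) and Mpc2 (-0.18, unadjusted p = 0.0277, limma) were among them, while Pygm (-0.21), Tpi1 (-0.14), Hkdc1 (0.42) and Pdk4 (-0.27) were not. Leaving out p16 KO CTL replicate 6 gave 4 calls (5.88%, against 11.9% of all genes), and leaving out p16 KO CTL replicate 5 gave 19 (27.9%, against 27.4%). Mpc1, Mpc2 and Pygm kept the Set A call in 8 of 8 fits that left out 1 library, Pdk4 and Hkdc1 in 6 and Tpi1 in 3. With quantile normalization Tpi1 (-0.05, unadjusted p = 0.323) and Hkdc1 (0.29, unadjusted p = 0.135, limma) lost the Set A call, and a single fit of all 16 libraries also lost that of Hkdc1 (unadjusted p = 0.0847, limma).

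Running over both genotypes called 10 of the 68 (14.7%, against 17.9%), 4 higher and 6 lower, where 9.87% of all genes were called higher and 8.02% lower. Mpc1 (-0.21, adjusted p = 0.0771) and Mpc2 (-0.24, adjusted p = 0.0864, limma) had the smallest p, with means of 148 and 150 TPM for Mpc1 in sedentary wild-type and knockout mice against 135 and 130 TPM in runners. Both kept an unadjusted p under 0.05 in 16 of 16 fits that left out 1 library and without the libraries low in nuclear RNA (-0.13 and -0.16). The transporter Slc16a6 was higher (0.38), and the brain and liver phosphorylases Pygb (-0.17) and Pygl (-0.36) and Pdk4 (-0.39) were lower. Without the libraries low in nuclear RNA, Slc16a6 kept the call (0.29, unadjusted p = 0.0373), while Pygb (-0.07, unadjusted p = 0.0991), Pygl (-0.26, unadjusted p = 0.114) and Pdk4 (-0.25, unadjusted p = 0.106, limma) lost it.

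The other comparisons called few genes of the list. In Set B 1 of 68 was called (1.47%, against 6.69%): Pygm was 24.0 ± 3.48 TPM in p16 WT CTL and 30.6 ± 3.30 TPM in p16 KO CTL libraries (0.42, unadjusted p = 0.0186, adjusted p = 0.625, limma). Pygm was also the gene called in the interaction (-0.44, unadjusted p = 0.0277, adjusted p = 0.797, limma), and its mean was highest in p16 KO CTL. It kept the call in 5 of 8 fits that left out 1 library in Set B and in 10 of 16 in the interaction. In Set C 2 of 68 (2.94%, against 4.81%) were called higher, Slc16a6 (0.45) and the inositol transporter Slc2a13 (0.17). In Set D 6 were called (8.82%, against 8.63%), with Mpc1 (-0.19), Mpc2 (-0.22) and Pygl (-0.45) lower and Slc2a6 (0.19), Pgam2 (0.46) and the insulin-sensitive transporter Slc2a4 (0.95, from 0.306 to 0.644 TPM) higher. In Set E 2 were called higher (2.94%, against 3.87%). The lactate receptor gene Hcar1 was at 0.596 to 0.912 TPM in p16 WT RUN and at 1.18 to 1.38 TPM in p16 KO RUN libraries (0.66, SE 0.199, unadjusted p = 0.00920, adjusted p = 1.0, limma), and Pdk2 differed by 0.11. Of the genes named for Sets C to E, Mpc1, Mpc2, Slc2a4 and Hcar1 kept the call in 8 of 8 fits that left out 1 library, Pgam2 in 5, Slc16a6 in 4, Slc2a6 in 3, and Slc2a13, Pygl and Pdk2 in 2. Slc2a13 lost the Set C call with TPM as deposited and with quantile normalization. A single fit of all 16 libraries and no variance trend also ended that call (unadjusted p up to 0.102, limma). Slc2a6 lost the Set D call with TPM as deposited (unadjusted p = 0.0607) and with the single fit (unadjusted p = 0.177, limma). Pdk2 lost the Set E call with the single fit (unadjusted p = 0.0879) and without the variance trend (unadjusted p = 0.0825, limma). Without p16 WT CTL replicate 2, the library low in nuclear RNA in Sets C and D, the calls of Slc2a13 in Set C (0.11, unadjusted p = 0.0816) and of Pygl (-0.34, unadjusted p = 0.104), Slc2a6 (0.14, unadjusted p = 0.0635) and Pgam2 (0.37, unadjusted p = 0.0532, limma) in Set D were lost. Basigin (Bsg) and neuroplastin (Nptn), the partner proteins that bring MCT1 and MCT2 to the membrane, were between 600.3 and 691 TPM and between 542 and 618 TPM in all libraries and were called in no comparison.

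**Figure D5:**
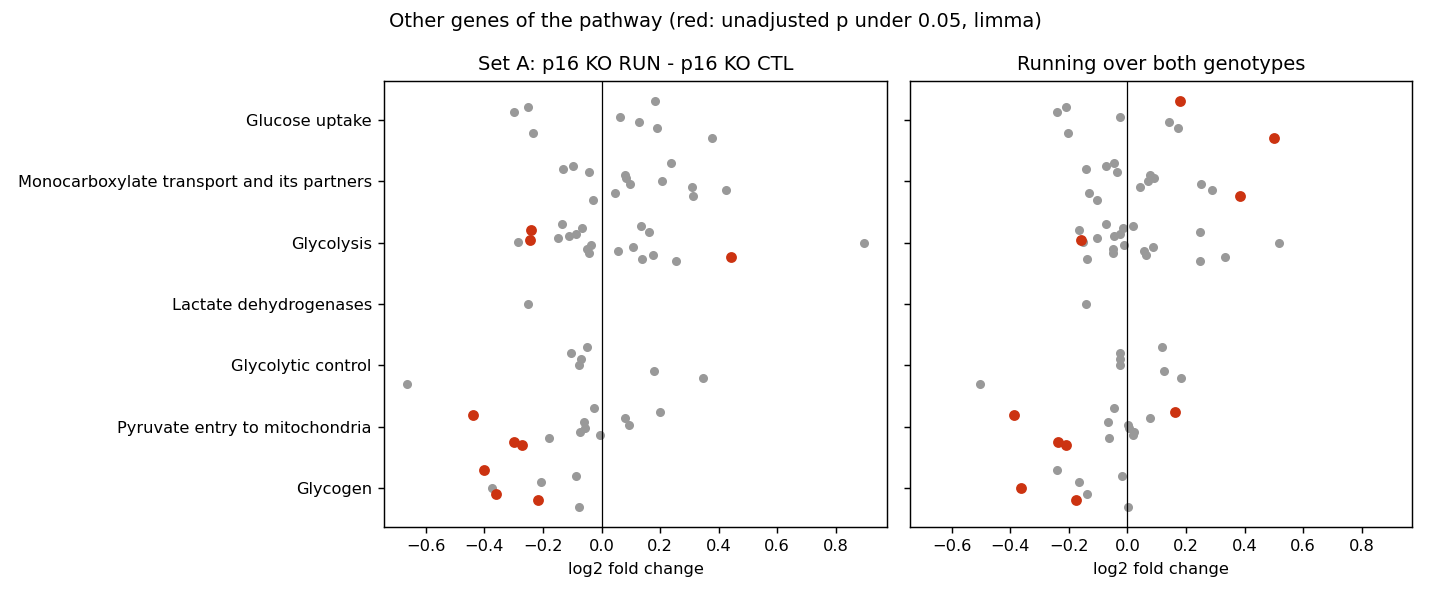
Log2 fold change (horizontal axis) of the 68 tested genes of the pathway list, by functional list (vertical axis), in Set A and for running over both genotypes; red points have an unadjusted p under 0.05 with limma. Red points of pyruvate entry and glycogen lie below 0 in Set A, with Mpc1 at -0.27 and Mpc2 at -0.30.

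Among the members themselves, the largest correlations over the 16 libraries were -0.78 between Slc2a1 and Ldhb, 0.73 between Ldha and Pfkfb3, 0.73 between Slc16a3 and Hk1, and -0.70 between Slc16a7 and Ldhb. With the group means removed they were -0.68, 0.79, 0.84 and -0.56. Slc16a1 had no correlation with another member beyond 0.50, the largest being with Ldhb, and this was -0.13 within groups. Slc16a7 correlated with the granule neuron markers (r = 0.70) and inversely with the summed neuron markers (r = -0.64) and the oligodendrocyte markers (r = -0.75). The points share libraries, the same fixed TPM sum and the cell composition of each dissection, and no p is given.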

How the data were processed

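RNA from the dentate gyrus of 16 pools of 2 mice was sequenced from stranded libraries, and the authors deposited 1 StringTie gene table per library. Per the labels and the study's methods, reads were demultiplexed with bcl2fastq 2.20, masked with cutadapt 1.11, trimmed, aligned to mm10 with STAR and quantified with StringTie. The deposited TPM values are per length and sum to 1000000 in each library, and the deposited coverage served for relative depth only. The study's own count-based comparisons are not used here.

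The TPM of entries under 1 name were added together, which touched 112 to 130 names in a library. Each library was divided by its median ratio to the average library, taken over the 13226 genes that reached 1 TPM everywhere (divisors 0.920 to 1.03), and log2(scaled TPM + 0.1) was fitted with limma 3.58.1 in R 4.3.3 (eBayes with trend) for the 17317 genes averaging 0.1 TPM or more. Fold changes are on this scale and understate the change of low genes. Each pairwise comparison used its 8 libraries, and the interaction and running over both genotypes used all 16. P-values were adjusted over all genes tested (Benjamini-Hochberg), intervals are 95%, and single genes were also tested by two-sided exact permutation (35 splits, smallest p 0.0286). TPM hold no read counts, so no counting interval is given.

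The 9 members are always named. Of the pathway list at most 6 genes with the smallest unadjusted p under 0.05 are named per comparison, and for each member called in a pairwise comparison the 3 genes of highest Pearson r. The members and lists were chosen with earlier results of these data known. In simulated data, 200 of 17317 genes were given a log2 fold change of 0.5. Of these, limma called 87% in the Set A design and 72.5% in the interaction, against 5% and 4.9% of unchanged genes. Whether these rates hold for the 16 libraries was not tested. In the libraries themselves, 18.5% of all genes were called in Set A and 5.48% in the interaction.

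Alternatives were TPM as deposited, quantile normalization, pseudocounts of 0.01 and 1, no filter or a mean of 1 TPM, the highest entry per gene name, 1 fit of all 16 libraries, no variance trend and leaving out each library. Leaving out the 3 sedentary libraries under 1000 TPM of nuclear RNA was chosen after seeing the data.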

Additional observations from a re-analysis of the deposited data

Results flagged for a closer look

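Among 56 sets of 4 libraries (9 genes and 5 shares in 4 groups), 4 had a library apart from the other 3 by Dixon's criterion at 95%, and chance gives about 1 in 20 such sets. Ldha was 451 TPM in p16 WT RUN replicate 10 against 349 to 365 TPM in the other 3. Hk1 was 357 TPM in p16 KO RUN replicate 16 against 319 to 324 TPM. The Ldha share of Ldha plus Ldhb was 34.6% in p16 WT CTL replicate 3, the lowest of its group. The Slc2a1 share of Slc2a1 plus Slc2a3 was 29.9% in p16 KO CTL replicate 6, 1 of the 3 libraries low in nuclear RNA.

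Between genotypes, the difference with running differed by an interaction of -0.35 for Slc16a1, -0.62 for Slc16a3 and -0.44 for Pygm on the log2 scale. All 3 had an unadjusted p under 0.05 with limma, and the adjusted p was 0.797 for each.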

How the results depend on the processing

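No paired analysis was possible because each replicate number belongs to 1 library. Of 603 member differences recomputed with another setting, apart from leaving out 1 library, 566 kept their direction and side of the threshold, 8 lost the call, 11 gained it and 18 changed sign. Of 648 with 1 library left out, 563 kept both, 18 lost the call, 10 gained it and 57 changed sign. The causes were not tested.

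Quantile normalization gave 1 member called in Set A and 2 in Set B, with 6 and 3 pathway genes, against 17.8% and 7.29% of all genes. A single fit of all 16 libraries gave 3 members in Set B and 1 in Set C, and 4, 1 and 1 pathway genes in Sets B, C and E, while all genes called were 12.7%, 5.64% and 3.00% in these Sets. Without the variance trend, 2 members were called in Set B and 1 in Set C, with 2 and 1 pathway genes, against 6.15% and 4.68% of all genes. A pseudocount of 1 TPM gave 2 members in Set B and 1 in Set C (6.62% and 4.90%). TPM as deposited gave 3 in Set A, 1 in Set C and 0 in the interaction (18.5%, 4.70% and 5.28%), and 14 pathway genes (20.6%, against 17.9%) for running over both genotypes. A mean of at least 1 TPM gave 1 pathway gene of 62 in Set E (3.55% of all genes). Without the libraries low in nuclear RNA, 1 member was called in each of Set A, Set D, the interaction and running over both genotypes, and 3, 3 and 2 pathway genes in Set A, Set B and the interaction. The share of all genes called was then 8.49%, 6.68% and 11.2% in Sets A, B and D, 7.25% in the interaction and 9.29% for running.

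The sign of differences near 0 changed. With TPM as deposited, Slc2a3 and Ldha became 0.0622 and 0.0522 in Set A, Hk1 -0.0539 in Set B, Ldha 0.0021 in the interaction and Slc2a3 0.0097 for running over both genotypes. With quantile normalization, Slc2a3 became 0.0285 and Ldha 0.0567 in Set A, Hk1 -0.0651 in Set B, Slc16a1 -0.0076 in Set C and Pfkfb3 0.0101 in Set E, which was 0.0009 with a pseudocount of 1. Without the libraries low in nuclear RNA, Ldha became 0.0515 in Set A, Slc2a1 0.0143 and Slc2a3 0.0057 in Set B, Slc16a7 -0.0657 and Ldhb 0.0069 in Set D, and Slc2a1 -0.0386 and Slc2a3 -0.0109 in the interaction.

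Leaving out 1 library at a time, members called ranged from 1 to 3 in Set A, 1 to 2 in Set B, 0 to 1 in Sets C, D and E, 1 to 3 in the interaction and 2 to 4 for running over both genotypes. Pathway genes called ranged from 4 to 19, 0 to 8, 0 to 7, 3 to 9 and 1 to 5 in Sets A to E, 0 to 8 in the interaction and 7 to 18 for running. The share of all genes called moved in the same fits, from 11.7 to 27.4%, 3.22 to 17.5%, 3.07 to 5.88%, 6.53 to 11.2% and 2.81 to 6.05% in Sets A to E, 3.58 to 13.8% in the interaction and 13.1 to 24.1% for running. Uncalled differences crossed 0: in Set A Hk1 (-0.0165 to 0.0549), Ldha (-0.107 to 0.0997) and Slc2a3 (-0.0406 to 0.0238), in Set B Hk1 (-0.0749 to 0.0457), Ldha (-0.0158 to 0.185) and Slc2a1 (-0.132 to 0.0044), in Set C Ldha (-0.0577 to 0.143) and Slc16a1 (-0.0681 to 0.0648), in Set D Hk1 (-0.0539 to 0.0666), Ldha (-0.0293 to 0.179), Ldhb (-0.12 to 0.0069), Pfkfb3 (-0.256 to 0.0616) and Slc16a7 (-0.0657 to 0.112), in Set E Ldha (-0.0581 to 0.142), Pfkfb3 (-0.116 to 0.201), Slc2a1 (-0.0775 to 0.0389) and Slc2a3 (-0.0424 to 0.022), in the interaction Ldha (-0.157 to 0.0624), Pfkfb3 (-0.208 to 0.109), Slc16a7 (-0.0238 to 0.154) and Slc2a1 (-0.0287 to 0.117), and for running Ldha (-0.0356 to 0.0686). The Ldha share ranged from 37.3 to 38.7% in p16 WT CTL, 34.4 to 36.5% in p16 KO CTL, 38.3 to 41.2% in p16 WT RUN and 38.4 to 42.0% in p16 KO RUN libraries.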

Other observations

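The following genes of the pathway list were chosen after their values were seen and were called in no pairwise comparison. Aldoa, the main aldolase of the tissue, was the highest gene of the list, at 3665 to 4268 TPM over the 16 libraries, and Gapdh came next at 2649 to 3309 TPM. Aldoc, the aldolase typical of astrocytes, was 877 ± 128 TPM in p16 WT CTL, 1012 ± 198 TPM in p16 KO CTL, 866 ± 40.5 TPM in p16 WT RUN and 859 ± 70.1 TPM in p16 KO RUN libraries. The proton-coupled transporter Slc16a11 ranged from 8.15 to 32.0 TPM. Ldhc, the lactate dehydrogenase of testis, did not exceed 0.0549 TPM in any library.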
